A study of Caenorhabditis elegans with 2 samples.

Results

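Intronic 3' ends are places inside a gene, between its exons, at which a polyadenylated transcript appears to end. They were taken from 3' end reads of Caenorhabditis elegans nuclei. Read positions of both libraries were joined into clusters within 24 nt of a peak, separately for each strand, and clusters of at least 20 reads over both libraries were kept. A cluster was a member when its peak lay inside a protein-coding gene on its strand but in no exon of any transcript there. Of 15049 clusters on the nuclear chromosomes, 535 (3.56%) met this rule, in 453 host genes. Members were chosen by their summed reads over both libraries and by the place of the peak. At the read minimum, 24 members had exactly 20 reads, of which 0 to 20 (median 10.5) were sorted reads, and 34 intronic clusters with 19 reads fell outside, with 1 to 19 (median 13.5) sorted reads. The study compared 1 library of nuclei collected by fluorescence-activated sorting, labelled as intestine and as nuclear RNA, with 1 library of input nuclei, labelled as mixed tissues and as total RNA. Both came from strain JM149 grown as mixed-stage liquid cultures at 25 °C and strained to enrich adults, with no other genotype or treatment named. Which cells of the strain carried the fluorescent mark is not in the labels. There were no replicates, so no test between the groups was possible, intervals cover counting error only, and sorting cannot be told apart from the difference in the molecule label.

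Most messenger RNAs are cleaved and polyadenylated after their last exon. When cleavage happens inside an intron before that intron is spliced out, the transcript is cut short and usually encodes a truncated protein or none. The U1 small nuclear ribonucleoprotein, which binds 5' splice sites, is known in vertebrate cells to hold back such early cleavage. An oligo(dT) primer can also bind A-rich stretches inside unspliced RNA, which gives reads that look like 3' ends. Sequence around the positions was not used here, so the part of such priming in the results below was not tested.

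The sorted library held 4702544 nuclear reads and the input library 9220245. By 95% intervals past 2-fold, sorted nuclei had 5 of 11 measured intestine markers higher and 0 lower, among them the GATA factor gene elt-2 at 3.15-fold (2.43 to 4.11). The abundant yolk protein genes vit-2 and vit-6 stood at ratios of 0.728 (0.710 to 0.747) and 0.748 (0.730 to 0.766), and vit-5 at 1.01 (0.993 to 1.03). Of 6 hypodermis markers 1 was higher and 3 were lower, of 5 pharynx markers 0 and 2, of 6 germ line and oocyte markers 0 and 3, of 4 sperm markers 0 and 2, of 6 body wall muscle markers 1 and 0, and of 5 neuron markers 1 and 1. The higher ones outside intestine were rol-6 of hypodermis at 2.26-fold, unc-54 of body wall muscle at 2.63-fold and snb-1 of neurons at 2.41-fold. Summed marker levels for intestine were 20474 RPM (reads per 1000000 nuclear reads) in sorted and 16755 RPM in input nuclei. For neurons they were also larger in sorted nuclei, 269 RPM against 183 RPM in input nuclei. In sorted and input nuclei, in that order, they were 1890.3 and 4567 RPM for hypodermis and 2619 and 5848 RPM for germ line and oocyte. For body wall muscle they were 1573 and 2212 RPM, for pharynx 295 and 1099 RPM, and for sperm 72.3 and 241 RPM. Among the defining markers of other tissues none stood at 0 in sorted nuclei, except that the sperm gene msd-1 had 0 reads in both libraries. In such bulk libraries fewer nuclei of a type and less RNA per nucleus cannot be told apart, and the part of these tissue differences in the results below was not tested.

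The members fell into 2 kinds. Of the 535 clusters, 56 (10.5%) had their peak within 24 nt of an annotated 3' end of a protein-coding transcript, just past the last exon of that transcript, with an intron of the host around it. These go against the name unannotated. They held several of the most abundant members. A cluster of the ribosomal protein gene rpl-7 at position 112274 of chromosome I, 2 nt from an annotated end, had 3302 sorted and 10447 input reads. Clusters in rack-1, which encodes a ribosome-associated scaffold protein, in nog-1, a nucleolar GTPase gene, and in plin-1, the perilipin gene of lipid droplets, lay 21, 16 and 7 nt from an annotated end. The cluster of rack-1 had 1327 sorted and 3760 input reads, that of nog-1 784 and 2416, and that of plin-1 607 and 2458. A further cluster of this kind in Y32F6A.5 had 1650 sorted and 3884 input reads. All 5 were lower in sorted nuclei by the ratio of levels, from 0.484 (0.442 to 0.529) in plin-1 to 0.833 (0.786 to 0.883) in Y32F6A.5, and none of the 5 had an interval past 2-fold. The other 479 clusters, in 410 genes, lay 26 to 28062 nt (median 1937 nt) from any annotated protein-coding 3' end and are called remote here.

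Intronic 3' ends were a small part of both libraries. The 535 clusters held 0.695% (0.687 to 0.702) of sorted and 0.526% (0.521 to 0.530) of input nuclear reads, a ratio of 1.32 (1.30 to 1.34). The direction of this pooled value depended on which clusters and exons were counted. It was 0.903 (0.881 to 0.926) in windows with an offset to the annotation of at most 5 nt, where the 103 remote clusters alone had 3.01 (2.86 to 3.17). The pooled value was 0.659 (0.652 to 0.666) when only exons of protein-coding transcripts counted. Counting each position once left 23 clusters, with a pooled ratio of 1.13 (0.960 to 1.32). The value over the 535 clusters also mixed opposite parts. The 56 clusters near annotated ends held 0.242% of sorted and 0.329% of input reads, a ratio of 0.734 (0.718 to 0.750), and the 479 remote clusters 0.453% of sorted and 0.197% of input reads, a ratio of 2.304 (2.26 to 2.35). Over remote intronic reads at every depth, with no read minimum, the shares were 0.855% of sorted and 0.360% of input reads, a ratio of 2.38 (2.34 to 2.41). These sites were spread over many positions: remote intronic reads lay at 11868 positions in sorted nuclei and 10613 in input nuclei, which is 7.21% and 5.0% of all nuclear positions seen in each library.

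Each cluster was called higher or lower in sorted nuclei when the 95% interval of its ratio lay past 2-fold. Of the 535 members 209 (39.1%) were called higher, 30 (5.61%) lower and 296 neither, against 15.6% higher and 6.17% lower of all 15049 clusters. At 4-fold, 126 members were higher and 3 lower, against 6.53% and 1.09% of all clusters. Among the 479 remote members 201 (42.0%) were higher and 29 (6.05%) lower at 2-fold, while among the 56 near annotated ends 8 (14.3%) were higher and 1 lower. The median log2 ratio was 1.53 for remote members, -0.27 for those near annotated ends and 0.069 for all clusters. Scaling by TMM moved all log2 ratios by -0.076 and left 204 members higher and 31 lower.

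**Figure D1:**
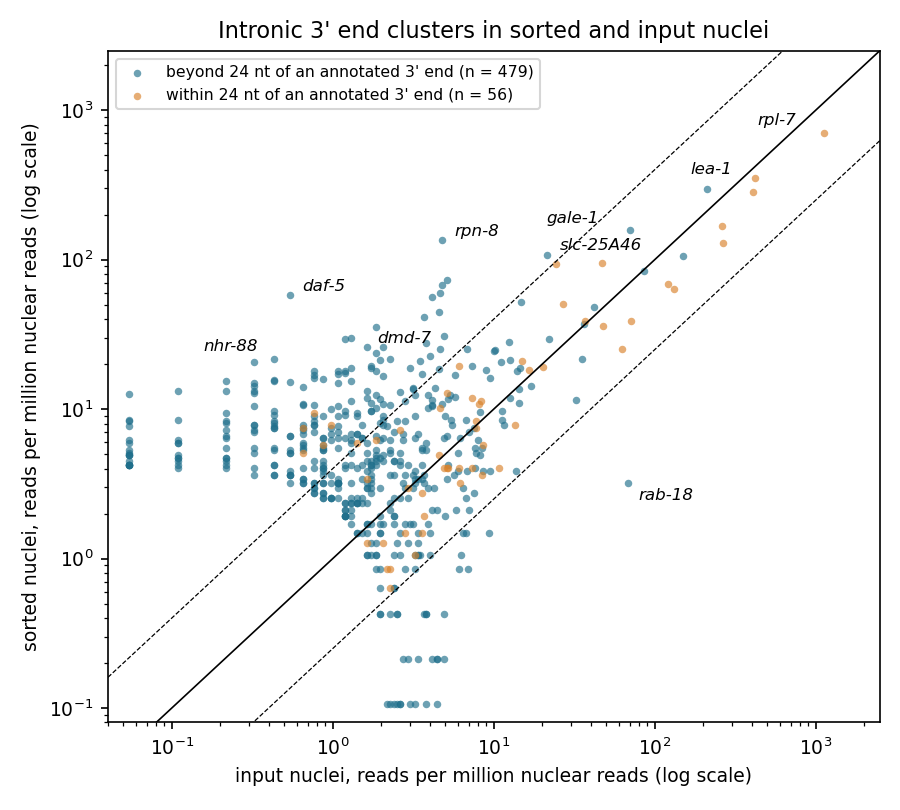
Level of each of the 535 intronic 3' end clusters in sorted nuclei (vertical axis) and input nuclei (horizontal axis), in RPM on log axes, with 0 reads drawn below the level of 1 read. The solid line marks equal levels and the dashed lines 4-fold, and most remote clusters lie above the solid line while rpl-7 and other abundant clusters near annotated ends lie below it.

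The remote intronic clusters were set beside clusters in other places. Their median log2 ratio was 1.53, with 42.0% called higher and 6.05% lower. Annotated 3' ends, 8540 clusters, had a median log2 ratio of -0.017 with 12.0% called higher. Clusters inside coding sequence, 673 in all, had a median of -0.94, with 14.4% higher and 32.2% lower. The 514 clusters between genes on either strand had a median of 1.36, with 41.2% higher and 5.06% lower, and a pooled ratio of 2.07 (2.05 to 2.10). The 171 clusters in noncoding genes had a median of 1.23 with 43.9% higher and 9.36% lower, and the 354 antisense to a gene 0.77 with 27.7% higher and 14.1% lower. The pattern is therefore not particular to introns, and with 1 library per group no difference between these classes was tested. The difference from annotated ends was present in each range of summed reads: among clusters of 20 to 29 reads the remote members had a median log2 ratio of 1.53, against 0.078 for annotated ends, and among clusters of 100 or more reads 1.35, against -0.10.

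**Figure D2:**
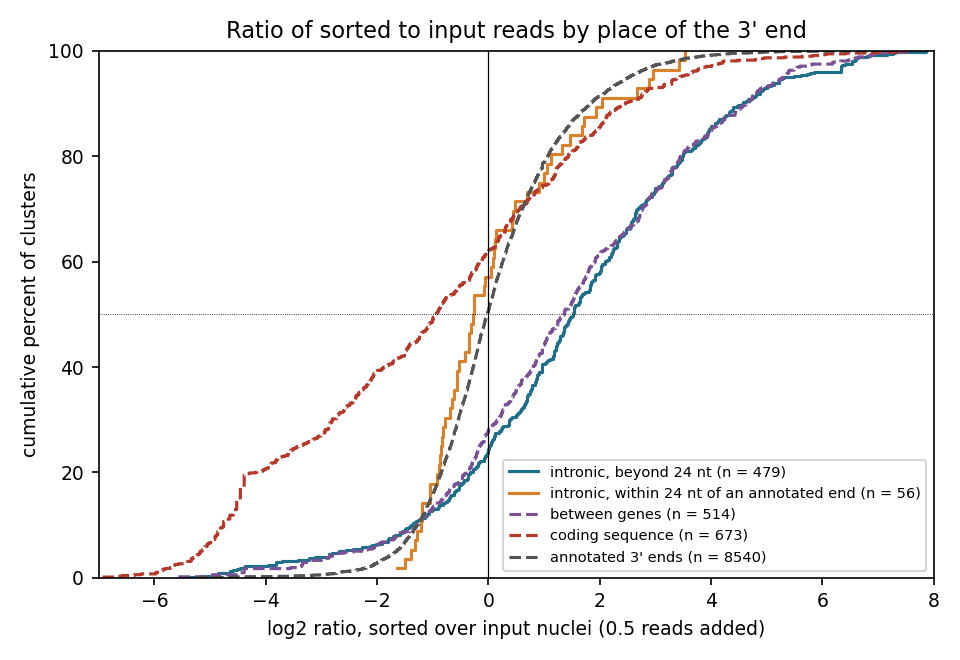
Cumulative percent of clusters (vertical axis) by log2 ratio of sorted over input nuclei (horizontal axis, 0.5 reads added to each library) for remote intronic clusters, intronic clusters near annotated ends, and clusters between genes, in coding sequence and at annotated 3' ends. The curves of remote intronic clusters and of clusters between genes run together with medians of 1.53 and 1.36, and the curve of coding sequence lies to the left with a median of -0.94.

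At a higher level the libraries shared a smaller part of the remote sites than of annotated 3' ends. At 5 RPM or more there were 237 remote clusters in sorted and 69 in input nuclei, and 47 reached this level in both, which is 19.8% of the sorted and 68.1% of the input set. Of annotated 3' ends 5400 reached it in sorted and 5077 in input nuclei, and the 4486 shared ones were 83.1% of the sorted and 88.4% of the input set. For clusters between genes the shared ones were 30.5% of the sorted and 72.8% of the input set, and in coding sequence 30.1% and 33.3%. Low sharing was thus not particular to introns. Median reads over both libraries were 40 for remote clusters and 110 for annotated ends, and the part of depth in the sharing was not tested. The median over clusters depended on which library had to hold the reads. Remote members with at least 20 sorted reads, 282 clusters, had a median log2 ratio of 2.63 with 66.7% called higher, against 0.37 and 23.4% for all clusters under the same minimum. Those with at least 20 input reads, 194 clusters, had a median of -0.0065 with 29 called higher and 29 lower, 14.9% each, against -0.19 with 9.47% higher and 8.07% lower for all clusters under that minimum. The pooled ratio was above 1 in both sets, at 2.92 (2.85 to 2.99) with the sorted and 1.53 (1.49 to 1.57) with the input minimum. Nearly all sites were nevertheless seen at some level in both libraries, 452 of the 479.

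Of the remote sites 72 had 100 or more reads over both libraries. The largest was in lea-1, which encodes a late embryogenesis abundant protein of desiccation tolerance, at position 10019025 of chromosome V on the forward strand. It had 1397 sorted and 1946 input reads, 297 and 211 RPM, a ratio of 1.41 (1.31 to 1.51). The first intron of gale-1, the UDP-galactose 4-epimerase gene, held a site at 12973136 on I with 747 sorted and 650 input reads, a ratio of 2.25 (2.03 to 2.51). In slc-25A46, a gene of the mitochondrial carrier family, the site at 13429252 on I had 508 sorted and 197 input reads and was 5.06-fold higher (4.28 to 5.99). A second cluster of Y32F6A.5, 40 nt from the annotated end, had 501 sorted and 1379 input reads, a ratio of 0.712 (0.642 to 0.790).

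The highest lower bounds of the ratio were mostly at sites with 5 or fewer input reads, rpn-8 with 44 being the exception. In daf-5, which encodes a Sno/Ski-type protein of the TGF-beta pathway for dauer formation, an intronic site at 14035774 on II had 272 sorted and 5 input reads, 57.8 and 0.542 RPM, a ratio of 107 (45.1 to 331). The site in rpn-8, a gene of the proteasome lid, at 4176144 on I, had 634 sorted and 44 input reads, 135 and 4.77 RPM, a ratio of 28.3 (20.8 to 39.3). A phospholipid flippase gene, tat-4, had 97 sorted and 3 input reads at an intronic site, a ratio of 63.4 (21.1 to 313), but that peak lay 5 nt from an exon and left the intron when shifted by 10 nt. In lbp-6, a fatty-acid-binding protein gene with a single intron, 62 sorted reads and 1 input read lay in the intron, a ratio of 122 (21.03 to 4878). The nuclear hormone receptor gene nhr-88 had 102 sorted and 4 input reads, a ratio of 50.0 (18.9 to 187), and F26H9.5 73 and 2, a ratio of 71.6 (19.1 to 602). In these 6 genes the lower bound of the ratio was 18.9 or more.

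A further 4 sites by this ranking had 0 input reads, where 0 allows up to 3 reads or 0.325 RPM, so the lower bound of the 95% interval is given in place of a ratio. Y56A3A.7 had 59 sorted reads and a lower bound of 30.4. F11D5.7 had 40 sorted reads and a bound of 20.3, the small heat shock protein gene hsp-17 had 39 and 19.8, and pals-14 had 36 and 18.2. Members of large families such as pals, fbxa and nhr have similar copies in the genome, and how multiply mapped reads were handled is not given in the sources used here.

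Fewer sites went the other way. In rab-18, a small GTPase gene, the intronic site at 1080374 on III on the reverse strand had 15 sorted and 628 input reads, 3.19 and 68.1 RPM, a ratio of 0.0468 (0.0261 to 0.0778). It lay 21 nt from an exon in an intron of 62 nt. The kinase gene par-1, which acts in cell polarity, had 0 sorted and 35 input reads at 14119404 on V, where 0 allows up to 3 reads or 0.638 RPM, and the upper bound of its ratio was 0.218. C48B6.9 had 0 sorted and 41 input reads and an upper bound of 0.185. These 3 are the sites past 4-fold by the interval. The intraflagellar transport gene dyf-2 had 0 sorted and 30 input reads and an upper bound of 0.257. K10D3.4 had 0 sorted and 28 input reads with a bound of 0.276, and cwf-19L2 0 sorted and 24 input reads with a bound of 0.326. With 1 sorted read each, tsg-101 of the ESCRT-I complex had 45 input reads, C47E8.1 38, afd-1 41 and the CREB gene crh-1 41, and their ratios ran from 0.0436 (0.00108 to 0.255) in tsg-101 to 0.0516 (0.00127 to 0.305) in C47E8.1. The peak of C47E8.1 lay 1 nt from an exon and that of afd-1 11 nt.

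To set a gene's level apart from the use of its intronic site, the share of sense reads at the site was taken. The whole was all sense reads over the host gene's span and 300 nt downstream. It includes reads of nested or neighbouring genes on that strand and of other intronic sites, so the separation is incomplete where such genes are present. Hosts of 470 members had at least 20 reads in each library. A share was called different when it changed by at least 20 percentage points and the intervals did not overlap. Of the 470 members 82 (17.4%) had a larger share in sorted nuclei and 25 (5.32%) a smaller one by this rule, against 3.68% larger and 3.62% smaller of 11289 clusters in genes. Among the 419 remote members with such hosts, 78 (18.6%) were larger and 23 (5.49%) smaller. Their median share was 18% in sorted and 12.1% in input nuclei. The sorted share was the larger in 287 (68.5%), against 49.9% of the 11289 clusters. The site held over 50% of its host's reads for 83 of the 419 in sorted and for 57 in input nuclei. For the 11289 clusters these numbers were 6542 and 6579. Of the 51 members near annotated ends 4 were larger and 2 smaller, and the medians were 46.2% in sorted and 47.1% in input nuclei. Clusters in coding sequence gave 21 larger and 56 smaller shares among 589. The excess of larger shares depended on which library had to hold the reads. Among remote members with at least 20 input reads, 20 shares (11.4%) were larger and 20 (11.4%) smaller. With at least 20 sorted reads, 76 (30.0%) were larger and 7 (2.77%) smaller.

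**Figure D3:**
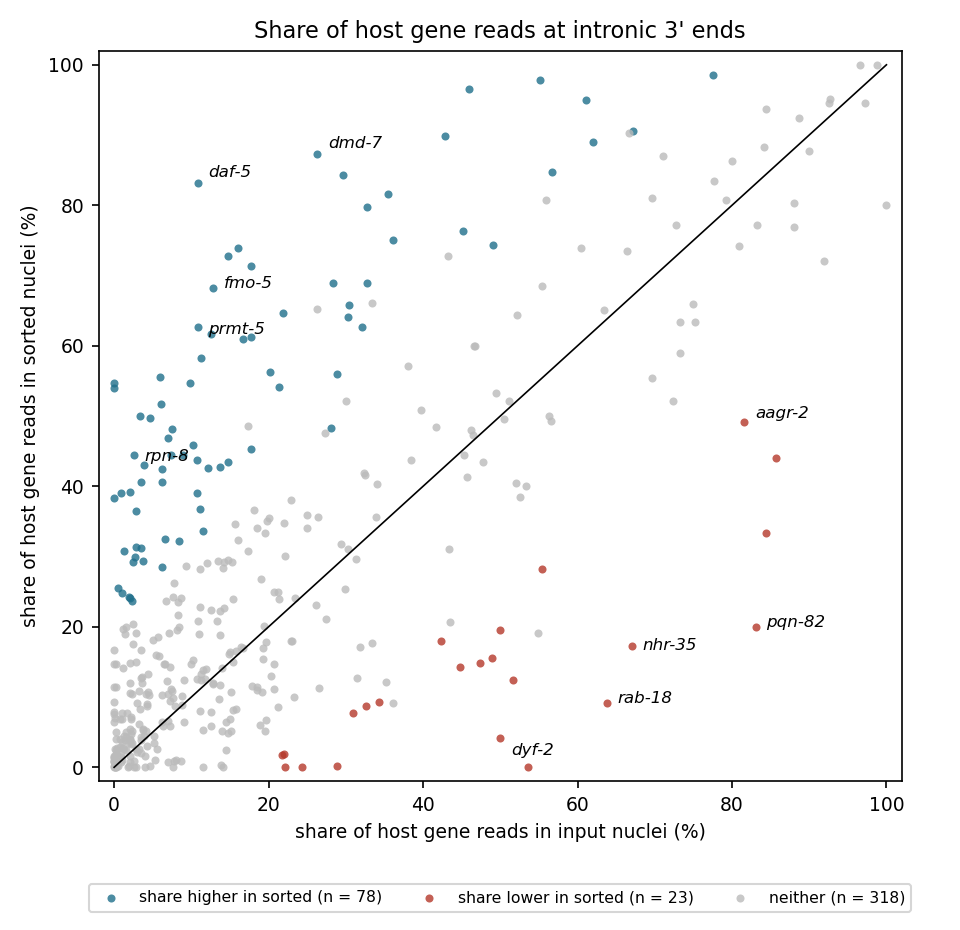
Share of the host gene's reads at each of 419 remote intronic clusters in sorted nuclei (vertical axis, percent) and in input nuclei (horizontal axis, percent). Points above the diagonal have the larger share in sorted nuclei, where 78 were called against 23 below it, and daf-5 stands at 83.2% in sorted against 10.9% in input nuclei.

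Shares within a gene are tied, since a larger share at the site leaves less for its other ends, so the ends are given by their reads as well. In daf-5 the intronic site held 83.2% (78.7 to 87.1) of 327 sorted and 10.9% (3.62 to 23.6) of 46 input reads. Its annotated end had 40 sorted and 37 input reads, 12.2% and 80.4% of the gene, and its own level had a ratio of 2.12 (1.32 to 3.41). The longest coding sequence of daf-5 had 28.9% of its bases upstream of that intron. In rpn-8 the annotated end had 682 sorted and 1533 input reads, 47.9% and 87.5%, with a ratio of levels of 0.872 (0.796 to 0.955), beside 44.5% and 2.51% at the intronic site, and a second intronic cluster at 4176219 had 20 sorted and 0 input reads. R12E2.13, which is convergent with rpn-8 on the opposite strand, held 51.7% (43.3 to 60.0) of sorted and 6.09% (2.48 to 12.1) of input reads at an intronic site, and 43.5% of sorted and 68.7% of input reads at its annotated end, whose level had a ratio of 1.59 (1.12 to 2.24). The arginine methyltransferase gene prmt-5 held 62.6% (52.3 to 72.1) of sorted and 10.9% (6.21 to 17.3) of input reads in its next-to-last intron, after 86.8% of the coding sequence and 14 nt from an exon. The annotated end of prmt-5 had 37 sorted and 92 input reads, a ratio of 0.789 (0.523 to 1.17). A cluster in its coding sequence had 0 sorted and 27 input reads. In dmd-7, a gene with a DM-type DNA-binding domain, the shares were 87.2% (80.6 to 92.3) in sorted and 26.3% (15.5 to 39.7) in input nuclei. A cluster in an exon of dmd-7 had 2 sorted and 30 input reads, a ratio of 0.131 (0.0151 to 0.515). The flavin-containing monooxygenase gene fmo-5 stood at 68.3% (58.4 to 77.1) in sorted and 12.8% (4.30 to 27.4) in input nuclei at an intronic site, and at 15.4% and 64.1% at its annotated end, whose level had a ratio of 1.25 (0.626 to 2.44).

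In the opposite direction, rab-18 held 9.20% (5.24 to 14.7) of 163 sorted reads and 63.8% (60.7 to 66.8) of 985 input reads at its intronic site. The annotated end of rab-18 with the most reads had 102 sorted and 247 input reads, 62.6% and 25.1%, a ratio of levels of 0.810 (0.636 to 1.02). In dyf-2 the intronic site held 0% (0 to 6.98) of 51 sorted reads and 53.6% (39.7 to 67.0) of 56 input reads. The annotated end of dyf-2 had 37 sorted and 23 input reads, a ratio of 3.15 (1.83 to 5.56). The nuclear hormone receptor gene nhr-35 had 17.2% (8.59 to 29.4) in sorted and 67.0% (56.7 to 76.2) in input nuclei, and pqn-82 20.0% (5.73 to 43.7) and 83.1% (72.9 to 90.7), though the pqn-82 peak lay 6 nt from an exon. One annotated end of nhr-35 had 22 sorted and 7 input reads, a ratio of 6.16 (2.54 to 17.1). Another had 15 and 15, a ratio of 1.96 (0.893 to 4.30). No other cluster of pqn-82 was kept. In aagr-2, of the acid alpha-glucosidase family, 49.2% (45.7 to 52.7) of sorted and 81.6% (79.04 to 84.01) of input reads lay at a site whose own level hardly differed, 84.2 RPM in sorted and 86.2 RPM in input nuclei. Its annotated end had 238 sorted and 92 input reads, a ratio of 5.07 (3.97 to 6.52). The last members named for a smaller share lay within 24 nt of an annotated end, in sumv-2, with 15.4% in sorted and 57.5% in input nuclei, and in the apical junction gene ajm-1, with 15% and 56.4%. A remote site of sumv-2 at 4626111 on V went the other way, with 50 sorted and 6 input reads, 40.7% and 3.45% of the gene. The annotated end of sumv-2 had 37 sorted and 49 input reads, a ratio of 1.48 (0.939 to 2.32). That of ajm-1 had 41 and 16, a ratio of 5.02 (2.76 to 9.59).

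Leaving the site's own reads out, the rest of the sense reads over the host's span could be measured for 407 remote members. This rest, too, includes any reads of nested or neighbouring genes on that strand. The site had a median log2 ratio of 1.47 and the rest of the same genes one of 0.53, and the site exceeded the rest in 278 of 407. Of 167 sites called higher in this set, the rest of the gene was called higher for 52, neither for 114 and lower for 1. The same comparison was not made for clusters in other places, so these counts have no background beside them. Members entered by their summed reads over both libraries, and the part of this in the counts was not tested. Counting only reads at annotated ends and in exons, 58 of 293 measured hosts of remote sites (19.8%) were called higher and 9 (3.07%) lower in sorted nuclei, against 12.7% and 4.52% of 9196 genes.

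Some hosts held more than 1 remote site. Of the 410 hosts 360 had 1 remote site, 39 had 2, 6 had 3 and 5 had 4 or more. Of the 50 with several, 28 had every site above a log2 ratio of 0, 3 had every site below and 19 had both, whatever the counting error. By calls at 2-fold, 3 of the 50 held sites of both directions and 10 had every site higher. Whether sites of a gene go together was not tested. In crh-1, the gene of the CREB transcription factor, 3 sites in the first intron had 282, 88 and 17 sorted reads and 43, 12 and 5 input reads, with ratios of 12.9 (9.30 to 18.2), 14.4 (7.83 to 28.9) and 6.67 (2.36 to 23.1). A site in intron 4 of crh-1 had 1 sorted and 41 input reads, a ratio of 0.0478 (0.00118 to 0.282). The first-intron sites of crh-1 were thus called higher and the other one lower.

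In the F-box gene fbxa-192 neighbouring sites had opposite values. Of its 3 sites in 1 intron of 8177 nt, that at 17645403 on V had 85 sorted and 11 input reads, a ratio of 15.2 (8.05 to 31.5). The one upstream of it, at 17645839, had 5 sorted and 31 input reads, a ratio of 0.316 (0.0960 to 0.820), not called. Their shares were 71.4% in sorted and 17.7% in input nuclei for the one, and 4.20% and 50.0% for the other. In afd-1, the afadin gene of cell junctions, a site at 2200998 on I had 67 sorted and 3 input reads, a ratio of 43.8 (14.4 to 218), and the site at 2197296 with 1 sorted and 41 input reads lay upstream of it. The remaining afd-1 sites had 84, 28 and 14 sorted and 128, 12 and 7 input reads.

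Y54E10A.10 had 3 sites in its last intron with 80, 24 and 17 sorted and 7, 3 and 3 input reads, all called higher, and 1 in the intron before with 24 sorted and 71 input reads, a ratio of 0.663 (0.399 to 1.07). The 4 sites of hyl-1, a ceramide synthase gene, had 12 to 40 sorted and 9 to 50 input reads and shares of at most 11.5% in either library. Their ratios ran from 1.57 (1.01 to 2.43) to 5.10 (2.38 to 11.8), the last called higher. In F53H2.3, which had 6 sites, the one at 20394441 on V had 20 sorted and 0 input reads and the one at 20402112 had 33 and 3, both called higher. The other F53H2.3 sites had 7 to 20 sorted and 11 to 33 input reads and none was called. The sites at 20394441 and 20402112 lay in a window placed with an offset of 4612 nt. In that window 31.9% of positions lay within 3 nt of the offset, and the place of these sites in F53H2.3 rests on it.

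**Figure D4:**
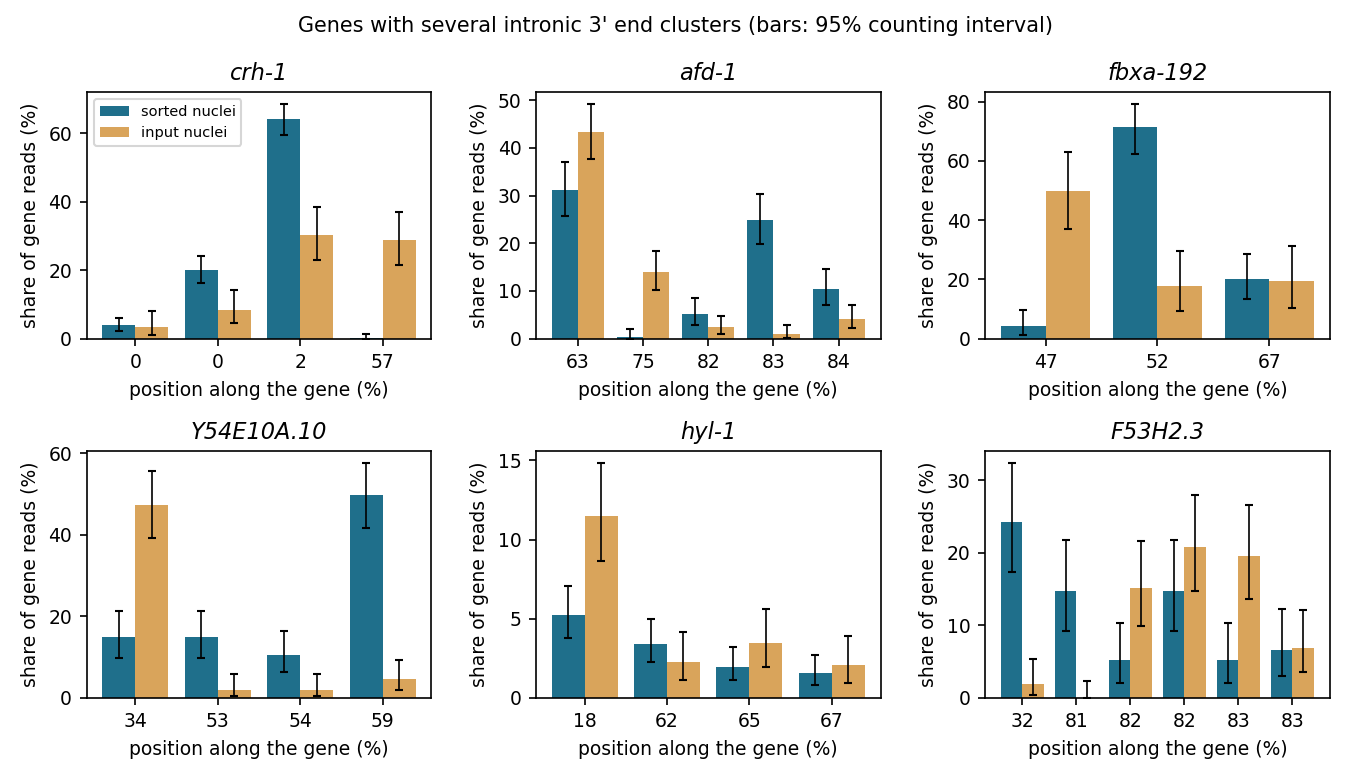
Share of the host gene's reads (vertical axis, percent) at each remote intronic cluster of 6 genes with several, ordered by position along the gene (horizontal axis, percent of the gene from its 5' end), in sorted nuclei (left bars) and input nuclei (right bars), with 95% counting intervals. In fbxa-192 the bars of neighbouring sites are reversed, 4.20% and 50.0% at one and 71.4% and 17.7% at the next.

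By the longest coding sequence of the host, 433 of the 479 lay between coding exons, 33 before the start codon and 13 after the stop codon. For 117 of the 433, under 20% of the coding sequence lay upstream, and for 54 at least 80%. Of the 479, 98 (20.5%) lay in the first intron, where 23.9% of the total intron length of protein-coding genes lies. The intron holding a site had a median length of 872 nt, against 65 nt for all 104901 introns, and 45.5% of sites lay in introns of at least 1000 nt, which make up 48.1% of all intron length. There were 13.8 remote sites per Mb of intron. The longest such intron, 86515 nt, was in cox-6B and its site had 17 sorted and 29 input reads. Of the remote sites 93 lay within 50 nt of the exon before and 81 within 50 nt of the exon after, and the median distance to the next exon was 364 nt.

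**Figure D5:**
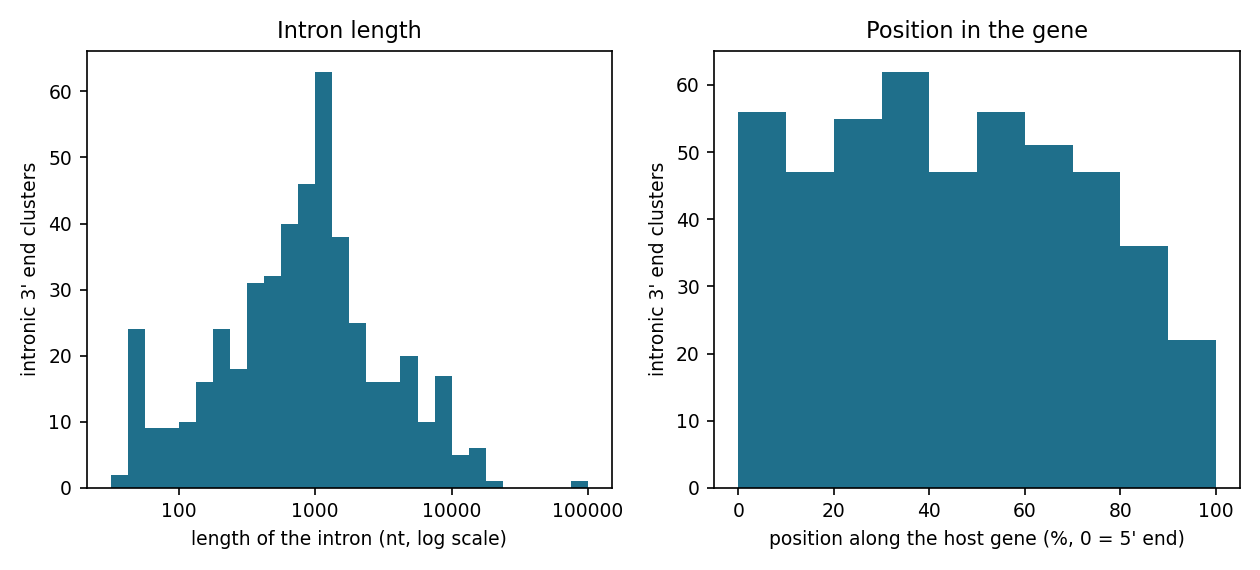
Number of remote intronic clusters (vertical axes) by length of the intron in nt on a log scale (left) and by position along the host gene in percent from its 5' end (right). The median intron length is 872 nt, and positions are spread over the gene with 103 in the 20% next to the 5' end and 58 in the last 20%.

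By place in the gene, sites in the first intron had a median log2 ratio of 1.61, those in middle introns 1.43 and those in the last of several introns 1.84. In introns under 200 nt the median was 1.39, from 200 to 999 nt 1.55 and from 1000 nt up 1.53. The 338 members at least 50 nt from any exon had a median of 1.55, and 148 of them were called higher and 18 lower. By chromosome, medians ran from 1.09 on IV to 1.91 on III, against 0.020 and 0.024 for all clusters there. On X, 27 of 53 remote sites were called higher and 0 lower, where all X clusters had 19.1% higher and 5.70% lower.

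Remote intronic clusters were narrow. They had a median of 4 positions over 6 nt with 75% of reads at the peak position, against 9 positions over 17 nt and 62.9% for annotated ends. For clusters of 50 to 99 reads over both libraries, of which the remote sites had 4738 sorted and 3257 input reads and annotated ends 45017 and 73778, the medians were 5 positions and 75.1% for remote sites, and 7 positions and 60.8% for annotated ends. Clusters between genes, with 6 positions and 69.2% in that range, lay between them. Of the remote sites 72 had 1 or 2 positions, and their median log2 ratio of 1.88 compares with 1.44 for the 407 with more. A cluster on the opposite strand within 24 nt was present for 1 remote site, or 0.209%, against 6.43% of all clusters and 8.47% of those at annotated ends. Remote sites leave out annotated ends by definition, and 23 of the 479 lay opposite a gene. The low value is therefore not independent of how the sites were chosen.

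Genes whose products make 3' ends or recognise introns were called as well. By reads at annotated ends and in exons, 12.7% of 9196 genes were called higher and 4.52% lower. With 15 measured genes in each list, no difference from these shares was tested. Of 15 measured cleavage and polyadenylation factor genes sorted nuclei had 1 called higher and 1 lower, with a median log2 ratio of 0.34. The higher one was pcf-11, whose product links cleavage to transcription termination, with 68 sorted and 21 input reads, a ratio of 6.35 (3.84 to 10.9). The lower one was the poly(A) polymerase gene pap-1, with 7 sorted and 78 input reads, a ratio of 0.176 (0.0685 to 0.380). From this list rbpl-1 alone hosted a member, with 14 sorted and 18 input reads. Of 15 measured genes of the U1 particle and early splicing, 1 was higher and 0 lower, with a median of 0.22. That gene was rnp-7, encoding the U1-70K protein, with 399 sorted and 261 input reads, a ratio of 2.997 (2.56 to 3.52). Their part in the intronic results was not tested.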

How the data were processed

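For both libraries the deposited tables hold the position and strand of each 3' end and its counts, whole and not scaled. The submitters' processing notes name TopHat. For build, read filters and A-rich or multiply mapped reads, the method is not given in the sources used here. Per the labels, RNA was primed with 24 T, amplified as antisense RNA and by 12 PCR cycles.

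Gene models were those of Ensembl release 115 (WBcel235). In each of 203 windows of 0.5 Mb, the commonest offset between positions of at least 10 reads and annotated protein-coding 3' ends was added to place a peak in a gene. It ran from -7 to 120 nt in all windows but 3 on V, where it was 4611 or 4612 nt. In the median window 41.8% of positions lay within 3 nt of it (lowest 13.0%), and 41 members lay in windows under 25%. Shifts of 10 nt to either side left 460 members in their intron. Printed positions are those of the files, whose build is not stated, and none was converted.

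Scaling was to all nuclear reads (RPM). Ratios are sorted over input with exact (Clopper-Pearson) 95% intervals from the binomial split of reads. The log2 ratios have 0.5 reads added. A count of 0 allows 3 reads. Reads amplified without molecular identifiers can be copies of 1 molecule, so intervals and floors cover counting error only. Host is the shortest gene around the peak, gene lists and members were chosen with earlier results of these data known, and named sites follow a rule: most reads (10 sorted, 5 input), extreme bounds of the ratio (10 each), largest gaps of share (8 each), and genes with 4 or more members. Sites in cox-6B, and values of further clusters of named hosts, were chosen after their values were seen. Calculations used Python 3.11.15 with scipy 1.17.1, and TMM of edgeR 4.0.16 and median of ratios of DESeq2 1.42.0 as alternatives. Scripts were tested on simulated data.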

Additional observations from a re-analysis of the deposited data

Results flagged for a closer look

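Reads in intronic clusters of under 20 reads, which the rule leaves out, were also a larger part of the sorted library. These 12211 clusters held 19022 sorted and 15230 input reads, 0.405% and 0.165% of nuclear reads, a ratio of 2.45 (2.40 to 2.50). Over all places, clusters of 20 or more reads held 97.2% of sorted and 98.2% of input nuclear reads. Reads below the minimum were thus a larger part of sorted nuclei in general, and the part of this in the ratio of 2.45 was not tested. There were no control samples for this count. The limit for a count of 0 applies to a single cluster and does not bear on a sum over many.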

How the results depend on the processing

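The ratio of the members' share of reads, 1.32, was 1.29 with clusters of 12 nt, 1.39 with a minimum of 10 reads, 1.21 with 50 and 1.59 with none. It was 1.13 with each position counted once, which left 23 clusters. It was 1.87 for members that kept their intron under shifts, 2.61 for those 50 nt or more from any exon, 2.22 without the 10 with the most reads and 1.29 for those of 3 or more positions. It turned to 0.903 in windows with an offset of at most 5 nt and to 0.659 when only exons of protein-coding transcripts counted, and the cause was not tested. Among alternatives chosen after seeing the data, it was 2.304 for remote members, 3.01 for these in windows with an offset of at most 5 nt, 2.26 for these with 3 or more positions, and 2.92 with 20 sorted or 1.53 with 20 input reads. The 209 members called higher became 371 with a minimum of 10 reads, 97 with 50, 0 with each position counted once, 40 in the low-offset windows (40 remote) and 29 for remote members with 20 input reads. The 30 called lower became 9 with a minimum of 50 reads, 0 with positions counted once, 6 in the low-offset windows (6 remote), 18 at 50 nt or more from exons and 1 with 20 sorted reads. The median log2 ratio, 1.33, was 0.12 with positions counted once, 1.55 at 50 nt or more from exons, 2.63 for remote members with 20 sorted reads and -0.0065 with 20 input reads. The 82 larger host shares became 0, 21 (21 remote) and 20 with positions counted once, in low-offset windows and with 20 input reads. The 25 smaller ones became 13 with a minimum of 50 reads, 0 with positions counted once, 4 in low-offset windows (4 remote), 15 at 50 nt or more from exons and 7 with 20 sorted reads. For remote members with 20 input reads, 20 shares were larger and 20 smaller. Smaller sets hold fewer members by construction. Counting positions once left 23 clusters in place of 535 and bounds the ratio a cluster can reach, so its values describe those 23 only. No paired analysis was possible because each group is 1 library, and no replicate could be left out. Depth limits sites of few reads: 0 allows 0.638 RPM in sorted and 0.325 RPM in input nuclei.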
